A study of Mus musculus with 30 samples.

Results

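The chaperones of the cytosol and the mitochondrion were followed through the livers of mice given insulin or phosphate-buffered saline (PBS). Members were taken by gene symbol from the deposited table: the HSP70 and HSP110 genes (Hspa and a digit, Hsph1), the cytosolic HSP90 genes, the small heat shock protein genes (Hspb and a digit), the chaperonin genes Hspd1, Hspe1, Tcp1 and Cct2 to Cct8, the J protein genes (Dnaja, Dnajb or Dnajc and a digit) and Bag1 to Bag6. Hspa5, Hsp90b1, Dnajb9, Dnajb11 and Dnajc3 of the endoplasmic reticulum were left out. This gave 89 of the 29117 genes, of which 77 were annotated as protein coding and 12 as processed pseudogenes, and 74 of the 89 were high enough to be tested. The rule used no measured value, though it was chosen with earlier results of these data known. It did keep at least 6 genes whose products sit in the endoplasmic reticulum (Hspa13, Dnajc1, Dnajc10, Dnajb12, Dnajb14 and Dnajc14), so the set is wider than the cytosol and mitochondrion, and it kept Hspb11, which encodes an intraflagellar transport subunit rather than a chaperone.

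The animals were 10-week-old C57BL/6J mice, an inbred strain, fasted for 12 to 16 h before an intraperitoneal injection of human insulin at 0.7 U/kg or of PBS, the vehicle. Fasting and injection were therefore common to both groups, and no uninjected group was analysed here. There were 30 libraries of poly(A) RNA from the left liver lobe, 3 for each treatment at each of 5 sampling points that spanned 4 h. The labels number the points 1 to 5 and give no minutes, so a point is called here by its number and no point is taken as a baseline.

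Chaperones keep other proteins from aggregating and help them fold. HSP70 proteins bind exposed hydrophobic stretches of a client in a cycle driven by ATP, J proteins deliver the client and start ATP hydrolysis, BAG proteins and HSP110 proteins release the nucleotide, and HSP90 takes over clients such as kinases and steroid receptors. The small heat shock proteins hold unfolded chains without ATP, and the chaperonins, TRiC in the cytosol and HSP60 with HSP10 in mitochondria, enclose a chain in a chamber. Many of these genes are switched on together by heat shock factor 1 (HSF1), which binds head-to-head repeats of the letters GAA, and in liver the same genes are known to follow body temperature and feeding.

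The start sites of several members carry the letters that HSF1 binds, and these are shown because 5 of the 7 genes that varied among the points in both treatments have them in their windows. Of the 7 genes printed, Hspe1 and Dnajb6 varied in neither treatment. Stretches of 30 bases are given 5′ to 3′ on the gene's strand, with the matched repeats in capitals, from RefSeq promoter windows on GRCm38.p6 that run from 250 bases before to 50 after a gene's start. The first 5 sequences hold 1 or more copies of the pair TTCNNGAA or GAANNTTC, and the 2 after them hold the triple GAANNTTCNNGAA or TTCNNGAANNTTC.
Hspa1b: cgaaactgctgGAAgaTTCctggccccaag
Hspa1a: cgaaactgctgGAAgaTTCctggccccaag
Dnaja1: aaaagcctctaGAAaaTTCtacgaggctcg
Hsph1: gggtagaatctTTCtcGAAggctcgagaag
Hspb1: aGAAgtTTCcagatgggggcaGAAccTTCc
Hspe1: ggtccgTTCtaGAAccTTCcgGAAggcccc
Dnajb6: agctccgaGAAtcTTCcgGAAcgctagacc
The stretches of Hspa1a (chr17:34972242-34972271, minus strand) and Hspa1b (chr17:34959324-34959353, minus strand) are the same 30 letters. Both run from position -115 to -86 from the start. That of Dnaja1 (chr4:40722333-40722362, plus strand) runs from -135 to -106, and that of Hsph1 (chr5:149636351-149636380, minus strand) from -44 to -15. Hspb1 (chr5:135887801-135887830, plus strand) has 2 pairs within its 30 bases, Hspe1 (chr1:55088053-55088082, plus strand) a run of 4 alternating units, and Dnajb6 (chr5:29735844-29735873, plus strand) a triple.

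A pair on either strand was present in 15.1% of all 32851 windows, in 12 of the 61 member windows (19.7%) and in 8 of the 12 windows of textbook HSF1 targets (66.7%), a list that holds the classic heat shock genes. The triple, whose matches also count as pairs, was present in 0.603% of all windows and in those of Dnajb6, Hspe1 and Hsph1. The window of Dnajb1 held neither, and 28 members, Hspa8 and Hsp90aa1 among them, were not matched to a window. Members and HSF1 targets were counted by the first window of each gene, whereas the share of all windows can hold several of a gene, so the units differ. A match is a description of these letters and not a measured binding site.

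A second set of letters, TGACG or CGTCA, the core site read by cyclic AMP response factors, is shown for Dnajb4 and Bag2, 2 of the genes that rose with insulin. It does not set them apart: the windows of Dnajc28, Hspb1, Hspb6 and Dnaja3, which were lower with insulin at a point, hold it too.
Dnajb4: gccTGACGtcgtcgggcggggaCGTCAcgc
Bag2: cggtgccgtccgCGTCAgcggcgcccgtgg
The stretch of Dnajb4 (chr3:152210119-152210148, minus strand) runs from -65 to -36 from the RefSeq start and has 2 core sites. That of Bag2 (chr1:33757752-33757781, minus strand) runs from -31 to -2 and has 1. Counted in the same unlike units, the core site was in 20.8% of all windows and in 25 of the 61 member windows (41.0%). The full palindrome TGACGTCA was in 1.79% of all windows and, among members, in that of Dnajc27.

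Libraries held a roughly estimated 20.0 to 41.0 M reads each (medians 30.8 M for insulin and 32.2 M for PBS). Values are FPKM, fragments scaled by transcript length and library size, and differences are on the log2(FPKM + 1) scale. The median of all 13589 genes tested lay below 0 at every point, at -0.06, -0.12, -0.14, -0.14 and -0.17 for insulin minus PBS at points 1 to 5. The members' medians were -0.01, -0.06, 0.04, -0.02 and -0.05. Rescaling the libraries by median ratios, which sets the typical gene near 0, therefore moved members upward, and the splits under it are given beside the main ones. Insulin and PBS libraries were sequenced on different lanes, so the lane cannot be told apart from the treatment, at a single point or in the mean over the points. Each point of the PBS arm had the same 3 lanes. In the insulin arm replicates 1, 2 and 3 ran on lanes 2, 1 and 2 at points 1 to 4 and on lanes 1, 1 and 2 at point 5, so comparisons of insulin point 5 with other points are not balanced for lane. Defining hepatocyte genes were high in every library (Alb at 25059 to 37137 FPKM). The summed level of 6 sinusoidal endothelium markers was 36.2 to 53.8 FPKM in insulin libraries and 47.1 to 71.7 in PBS libraries, with 4 of the 6 called at some point. That of 6 Kupffer cell markers was 48.3 to 103.8 and 63.2 to 185 FPKM, with 2 of the 6 called at point 4. That of 5 red cell markers was 219 to 757 and 219 to 960 FPKM, and at point 5 it was 219 to 262 with insulin and 311 to 458 with PBS, with 1 of the 5 called. No marker of these 3 lists was at 0 in any library, and their part in the results below was not tested. In bulk tissue, fewer cells of a type and less RNA per cell cannot be told apart.

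Some of the heat shock genes varied with the sampling point in both treatments. Of the 15 textbook HSF1 targets, a list chosen with earlier results of these data known, 9 varied in the insulin arm and 8 in the PBS arm. Within the insulin arm 14 of 74 members (18.9%) varied among the points, beside 13.3% of all genes tested, and within the PBS arm 8 members (10.8%) did, beside 3.27% of all genes. Leaving out 1 replicate series at a time gave 8 to 14 members in the insulin arm and 0 to 6 in the PBS arm, so the PBS count of 8 was not reached in any of these. In both arms 7 did, namely Hspa1a, Hspa1b, Hspa8, Hsph1, Dnaja1, Dnajb1 and Hspb8, which is 7 of 14 and 7 of 8. Over all genes 304 were shared, of 1804 and of 444. Every one of the 7 is on the list of textbook HSF1 targets, and in both arms their highest group mean was at point 2, 3 or 4 and their lowest at point 1, 4 or 5. The 2 arms share no library, but both tests used 1 spread per gene fitted over all 30 libraries, so they were not independent. The other 7 called in the insulin arm were Dnajb4, Dnajc28, Bag2, Bag3, Hspa2, Dnajb14 and Dnajc21, and the other 1 in the PBS arm was Hspb1.

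**Figure D1:**
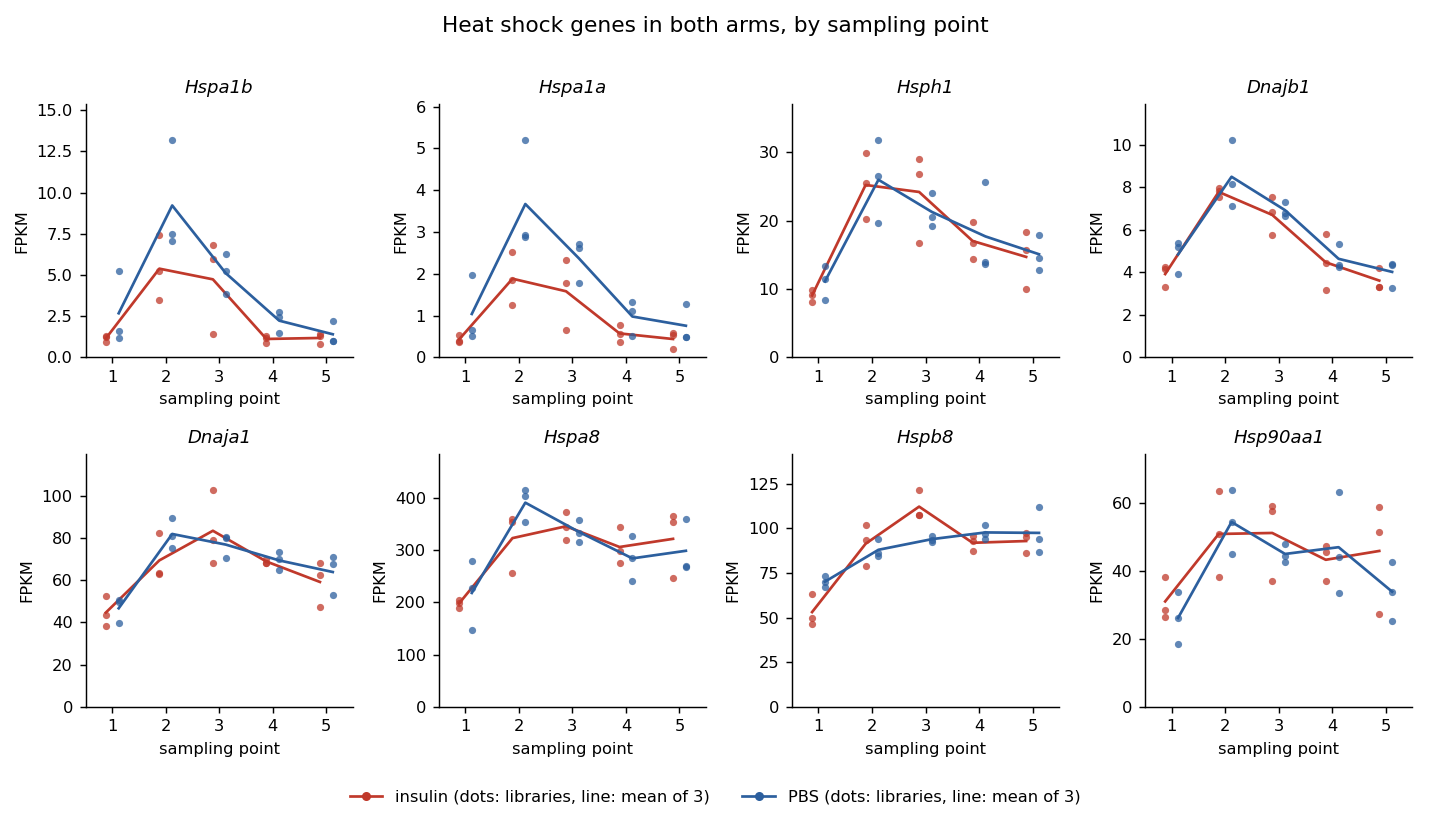
FPKM of 8 heat shock genes in each of the 30 libraries, by sampling point, with insulin and PBS libraries in separate colours and lines through the group means. In both treatments the means of Hspa1b, Hspa1a, Hsph1 and Dnajb1 are highest at point 2.

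Hspa1a and Hspa1b encode the stress-inducible HSP70 and had the widest swing of the 7. In the insulin arm Hspa1b stood at 1.26, 1.28 and 0.923 (point 1), 3.47, 7.44 and 5.25 (point 2), 5.94, 1.44 and 6.82 (point 3), 1.17, 0.880 and 1.31 (point 4) and 0.829, 1.40 and 1.31 FPKM (point 5). In the PBS arm it stood at 5.22, 1.20 and 1.61 (point 1), 13.2, 7.46 and 7.03 (point 2), 3.82, 6.27 and 5.25 (point 3), 1.46, 2.76 and 2.47 (point 4) and 0.994, 1.00 and 2.22 FPKM (point 5). Every library of point 2 lay above every library of point 5 within its arm, and PBS replicate 1 of point 1 and insulin replicate 2 of point 3 stood apart from their group. Hspa1b varied among points in the insulin arm (F = 8.71, adjusted p = 0.00328) and in the PBS arm (F = 10.3, adjusted p = 0.00488). Hspa1a was at 0.358, 0.526 and 0.395 (point 1) and 1.26, 2.53 and 1.86 FPKM (point 2) in the insulin arm. In the PBS arm it was at 1.97, 0.504 and 0.649 (point 1) and 5.19, 2.93 and 2.89 FPKM (point 2), and it varied in both (F = 6.19, adjusted p = 0.0165 for insulin and F = 10.2, adjusted p = 0.00505 for PBS). The transcripts of the 2 genes are 99.136% identical over 2200 aligned bases, so the split of reads between them is uncertain. Their summed value varied as well (F = 8.55, adjusted p = 0.00362 in the insulin arm and F = 10.1, adjusted p = 0.00548 in the PBS arm).

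Each call was checked under alternatives to the main analysis: another pseudocount, filter, scaling or model, and the omission of a library (a replicate at the point) or a series (a replicate number at all points). Hspa1b lost its call in the insulin arm in 1 of 14 alternatives (adjusted p between 0.00158 and 0.0972), namely without insulin series 3 (adjusted p = 0.0972). Hspa1b lost its call in the PBS arm in 1 of 14 alternatives (adjusted p between 0.00235 and 0.101), namely without PBS series 2 (adjusted p = 0.101). Hspa1a lost its call in the insulin arm in 3 of 14 alternatives (adjusted p between 0.00362 and 0.175), namely without insulin series 1, 2 or 3 (adjusted p = 0.14, 0.051 and 0.175). Hspa1a lost its call in the PBS arm in 1 of 14 alternatives (adjusted p between 0.00463 and 0.11), namely without PBS series 2 (adjusted p = 0.11).

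Hsph1, an HSP110 protein that releases nucleotide from HSP70, was at 9.16, 8.13 and 9.86 (point 1) and 20.3, 25.5 and 29.8 FPKM (point 2) with insulin. With PBS it was at 13.4, 11.5 and 8.39 (point 1) and 31.7, 26.6 and 19.6 FPKM (point 2). No library of point 1 reached a library of point 2 in either arm. Dnajb1, the classic HSP40 partner of inducible HSP70, was at 4.17, 3.33 and 4.26 (point 1), 7.56, 7.83 and 7.97 (point 2) and 3.33, 3.31 and 4.21 FPKM (point 5) with insulin. With PBS it was at 5.41, 3.93 and 5.19 (point 1), 10.2, 8.17 and 7.12 (point 2) and 4.41, 4.37 and 3.29 FPKM (point 5). Dnajb1 thus stood at point 5 close to its range at point 1. Dnaja1, a class A J protein, was at 38.2, 52.4 and 43.5 (point 1) and 79.2, 68.4 and 103 FPKM (point 3) with insulin. With PBS it was at 50.7, 39.6 and 49.9 (point 1) and 70.5, 80.3 and 80.0 FPKM (point 3). Unlike Dnajb1, it stood at 67.7, 70.9 and 53.2 FPKM at point 5 of the PBS arm, where every library was above every library of point 1.

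In the insulin arm the variation among points gave F = 10.3, adjusted p = 0.00132 for Hsph1, F = 14.0, adjusted p = 0.000222 for Dnajb1 and F = 8.90, adjusted p = 0.00294 for Dnaja1. The PBS arm gave F = 6.51, adjusted p = 0.039 for Hsph1, F = 11.9, adjusted p = 0.0023 for Dnajb1 and F = 8.08, adjusted p = 0.0155 for Dnaja1. Hsph1 lost its call in the PBS arm in 7 of 14 alternatives (adjusted p between 0.0273 and 0.259), namely without insulin series 1, 2 or 3 (adjusted p = 0.0507, 0.055 and 0.0565) or PBS series 1, 2 or 3 (adjusted p = 0.259, 0.154 and 0.195) and with no filter (adjusted p = 0.103). Dnajb1 lost its call in the PBS arm in 2 of 14 alternatives (adjusted p between 0.00198 and 0.0884), namely without PBS series 1 or 2 (adjusted p = 0.0884 and 0.0601). Dnaja1 lost its call in the PBS arm in 3 of 14 alternatives (adjusted p between 0.00844 and 0.355), namely without PBS series 1, 2 or 3 (adjusted p = 0.134, 0.355 and 0.103). Dnaja1 lost its call in the insulin arm in 2 of 14 alternatives (adjusted p between 0.000538 and 0.0642), namely without insulin series 1 or 3 (adjusted p = 0.0609 and 0.0642).

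Hspa8, the constitutive HSP70 and the most abundant of its family here, was at 205, 188 and 199 (point 1) and 255, 353 and 360.0 FPKM (point 2) with insulin. With PBS it was at 279.7, 147 and 227 (point 1) and 404, 415 and 353 FPKM (point 2). Point 1 lay wholly below point 2 in both arms, but PBS replicate 2 of point 1 was well under the other PBS libraries of that point. Its variation gave F = 5.75, adjusted p = 0.0223 in the insulin arm and F = 6.10, adjusted p = 0.0483 in the PBS arm. Hspa8 lost its call in the insulin arm in 4 of 14 alternatives (adjusted p between 0.00728 and 0.266), namely without insulin series 2 or 3 (adjusted p = 0.246 and 0.266) or PBS series 3 (adjusted p = 0.0572) and with no filter (adjusted p = 0.0554). Hspa8 lost its call in the PBS arm in 7 of 14 alternatives (adjusted p between 0.0364 and 0.344), namely without insulin series 2 or 3 (adjusted p = 0.108 and 0.0969) or PBS series 1, 2 or 3 (adjusted p = 0.0912, 0.344 and 0.21) and with no filter (adjusted p = 0.109) and no trend (adjusted p = 0.0549).

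Hspb8, a small heat shock protein that works with Bag3 in clearing misfolded proteins, had another course. With insulin it was at 49.9, 63.0 and 46.5 (point 1), 79.2, 93.3 and 102 (point 2), 107, 122 and 108 (point 3), 87.2, 95.7 and 93.0 (point 4) and 86.4, 95.0 and 97.4 FPKM (point 5). With PBS it was at 69.9, 67.2 and 73.4 (point 1), 86.0, 93.8 and 84.3 (point 2), 92.4, 93.6 and 96.0 (point 3), 96.9, 102 and 94.3 (point 4) and 86.7, 112 and 93.9 FPKM (point 5). Every library of point 5 lay above every library of point 1 in both arms. The insulin arm (F = 27.0, adjusted p = 2.33e-06) gave the largest F of the 14 members called there, and the PBS arm gave F = 6.36, adjusted p = 0.0418. Hspb8 lost its call in the PBS arm in 6 of 14 alternatives (adjusted p between 0.012 and 0.419), namely without insulin series 1 or 3 (adjusted p = 0.0507 and 0.0614) or PBS series 1, 2 or 3 (adjusted p = 0.279, 0.419 and 0.243) and with no trend (adjusted p = 0.056).

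Bag3 itself varied in the insulin arm, at 4.86, 5.17 and 5.39 (point 1), 9.30, 15.3 and 12.7 (point 3) and 5.89, 6.03 and 4.91 FPKM (point 5) (F = 16.9, adjusted p = 6.43e-05). In the PBS arm it was at 8.08, 5.98 and 6.59 (point 1), 8.21, 8.24 and 9.89 (point 3) and 6.25, 6.79 and 8.44 FPKM (point 5) and did not pass (F = 3.20, adjusted p = 0.277). The difference between the arms was itself tested and did not pass (F = 4.03, adjusted p = 0.225).

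The HSP90 genes did not pass in either arm. Hsp90aa1, the inducible form, was at 26.4, 38.2 and 28.7 (point 1) and 38.4, 50.9 and 63.8 FPKM (point 2) with insulin. With PBS it was at 33.9, 18.5 and 26.3 (point 1) and 64.0, 54.6 and 45.0 FPKM (point 2). The tests gave F = 2.11, adjusted p = 0.32 in the insulin arm and F = 4.69, adjusted p = 0.112 in the PBS arm. Hsp90ab1, the constitutive form, ranged from 235 to 427 FPKM in the insulin libraries and 268 to 470.5 in the PBS libraries. The 3 mitochondrial chaperones that fold imported proteins did not pass either. Hspa9 ranged from 162 to 234 FPKM with insulin and 169.7 to 239 with PBS. Hspd1 ranged from 142 to 225 and 135 to 198, and Hspe1 from 66.6 to 114 and 73.0 to 117. With median-ratio scaling Hspa9 and Hspd1 passed in the insulin arm.

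Points 2 and 1 were then compared directly, a contrast chosen after the levels had been seen. In the insulin arm 11 of 74 members were higher at point 2, beside 2.06% of all genes, and 1 was lower, beside 1.16% (3.22% of all genes in either direction). In the PBS arm 6 were higher, beside 0.471% of all genes, and none was lower, beside 0.0809% (0.552% in either direction). The summed red cell markers fell without overlap between the same points, from 409 to 757 FPKM at point 1 to 306 to 395 at point 2 with insulin, and from 375 to 960 to 219 to 335 with PBS. None of the 5 was called, and their part in these counts was not tested. Of the 15 textbook HSF1 targets, a list chosen with earlier results known, 9 were higher in the insulin arm and 6 in the PBS arm. Their median differences were 0.69 and 0.70 on the log2 scale against -0.04 and 0.02 over all genes tested, and 15 of 15 lay above 0 in the PBS arm. The 6 genes higher in the PBS arm, Hspa1a, Hspa1b, Hsph1, Hspa8, Dnaja1 and Dnajb1, were all among the 11 of the insulin arm.

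The sizes in the arms can be set side by side. Hspa1b was higher at point 2 by 1.52 ± 0.37 (SE, with adjusted p = 0.0188) with insulin and by 1.58 ± 0.37 (SE, with adjusted p = 0.0457) with PBS. Hsph1 was higher by 1.37 ± 0.25 (SE, with adjusted p = 0.000995) and by 1.15 ± 0.25 (SE, with adjusted p = 0.0298), and Hspa8 by 0.69 ± 0.19 (SE, with adjusted p = 0.0415) and by 0.88 ± 0.19 (SE, with adjusted p = 0.0298). Over all 5 points, the F test of whether the insulin difference depended on the point did not pass for these genes. It gave adjusted p = 0.949 for Hspa1b, 0.974 for Hsph1 and 0.886 for Hspa8, which does not show that the arms were alike. Whether the change from point 1 to point 2 alone differed between the arms was not tested. The PBS count went from 6 to 0 when PBS replicate 1, 2 or 3 was left out at all points, and the insulin count from 11 to 6, 5 and 4 without insulin replicate 1, 2 and 3.

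From point 2 to point 5, also compared after the levels had been seen, 5 members were lower in the insulin arm, beside 3.5% of all genes, and 1 was higher, beside 2.48%. In the PBS arm 3 were lower, beside 0.478%, and none was higher, beside 0.684%. The difference of point 5 minus point 2 was -1.51 ± 0.37 (SE, with adjusted p = 0.0129) for Hspa1b with insulin and -2.08 ± 0.37 (SE, with adjusted p = 0.00369) with PBS, and -0.93 ± 0.16 (SE, with adjusted p = 0.000454) and -0.91 ± 0.16 (SE, with adjusted p = 0.00303) for Dnajb1. Hspa1a was the third gene lower in both arms. In the insulin arm the red cell sum was also lower at point 5, at 219 to 262 FPKM against 306 to 395 at point 2, with 1 of the 5 markers called. The PBS count was 0, 0 and 3 without PBS replicate 1, 2 and 3.

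Insulin was next compared with PBS at each point. At point 1 no member passed, beside 0.00736% of all genes, and 4 had an unadjusted p under 0.05 (5.41% of the members, against 7.93% of all genes). The 3 calls of point 2 were 4.05% of the members beside 1.35% of all genes. The 7 of point 3 were 9.46% beside 9.45%, the 10 of point 4 were 13.5% beside 13.2%, and the 3 of point 5 were 4.05% beside 19.1%. The members' share of calls was thus close to that of all genes at points 3 and 4 and lower at point 5.

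By direction, members higher with insulin numbered 2, 4, 4 and 2 at points 2 to 5, beside 0.618%, 2.19%, 2.82% and 2.96% of all genes, and members lower numbered 1, 3, 6 and 1, beside 0.736%, 7.26%, 10.4% and 16.1%. Under median-ratio scaling 2 were higher and 1 lower at point 2, beside 1.11% and 0.421% of all 13544 genes tested there, and 9 and 1 at point 3, beside 5.21% and 3.6%. Its counts at point 4 were 9 and 4, beside 7.02% and 5.85%, and at point 5 they were 13 and 0, beside 9.04% and 7.86%.

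Every member called at a point had its 3 insulin libraries entirely above or entirely below its 3 PBS libraries. Members with all 3 insulin libraries above numbered 2, 5, 12, 10 and 6 at the 5 points, beside 2.99%, 4.86%, 7.65%, 8.01% and 6.42% of all genes. Those with all 3 below numbered 3, 7, 13, 13 and 9 of 74, beside 6.44%, 18.6%, 27.8%, 24.3% and 29%.

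**Figure D2:**
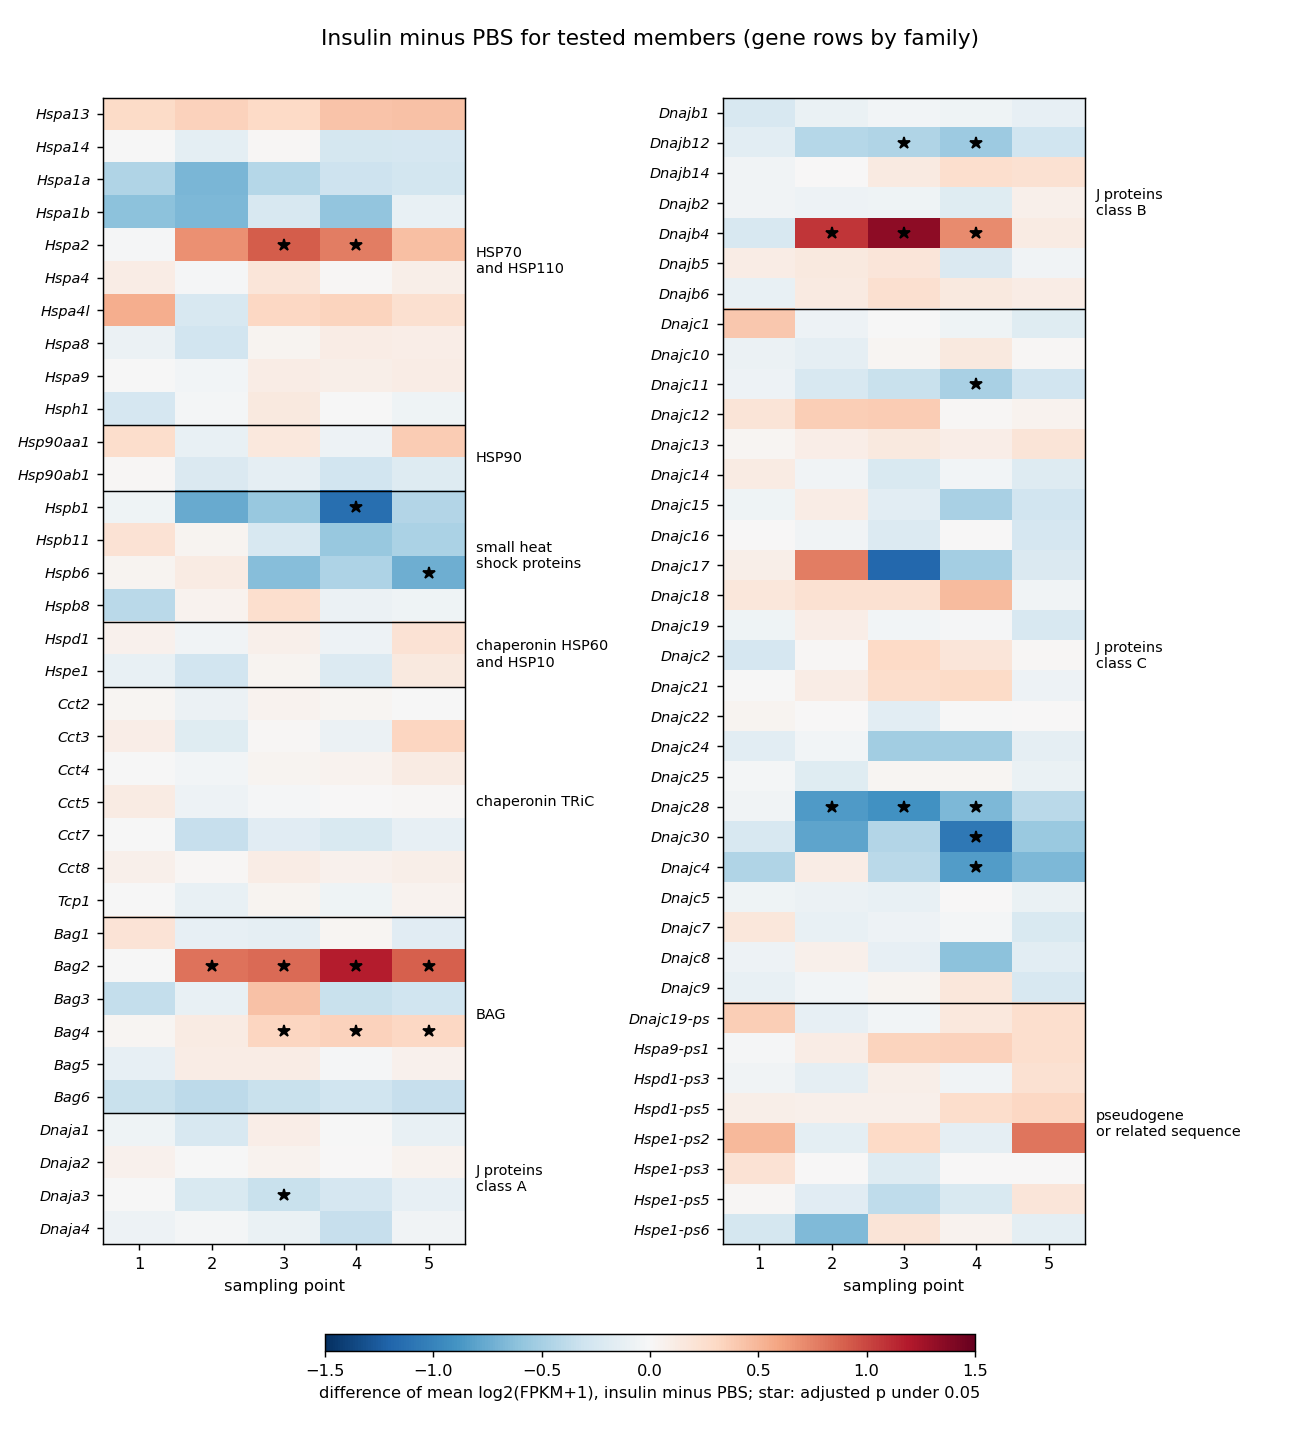
Difference between insulin and PBS on the log2(FPKM + 1) scale for 73 of the 74 tested members (rows, by family) at the 5 sampling points (columns), with a star where the adjusted p was under 0.05. Dnajb4, Bag2, Bag4 and Hspa2 are the rows with stars above 0, Dnajc28 is below 0 with stars at points 2 to 4, and the TRiC rows carry no star.

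Dnajb4, a class B J protein of the HSP40 type, had the largest rise of any member with insulin at points 2 and 3 on the log2(FPKM + 1) scale (chromosome 3, 152178511 to 152210302, minus strand, on GRCm38 by GENCODE M21, as for the positions below). At point 1 it was at 12.1, 14.6 and 15.0 FPKM in the insulin libraries and 22.3, 14.6 and 13.9 FPKM in the PBS libraries, which overlapped. At point 2 it was at 42.2, 53.4 and 48.7 FPKM in the insulin libraries and 29.6, 17.8 and 21.1 FPKM in the PBS libraries. At point 3 it was at 29.0, 66.9 and 46.0 FPKM in the insulin libraries and 18.1, 14.8 and 18.5 FPKM in the PBS libraries. The 2 groups no longer overlapped. As plain ratios of the group means, insulin to PBS, Dnajb4 was at 2.11 at point 2 and 2.76 at point 3, under the ratios of the lower genes Bag2 (4.57 and 2.84) and Hspa2 (2.69 and 2.97). It was higher with insulin by 1.07 ± 0.22 (SE, with adjusted p = 0.00857) on the log2 scale at point 2 and by 1.34 ± 0.22 (SE, with adjusted p = 0.000423) at point 3. At point 4 it was at 22.5, 31.2 and 23.7 FPKM in the insulin libraries and 16.1, 14.8 and 14.7 FPKM in the PBS libraries, a difference of 0.71 ± 0.22 (SE, with adjusted p = 0.0319). At point 5, where the groups overlapped, it was at 15.4, 17.7 and 15.0 FPKM in the insulin libraries and 13.3, 15.9 and 14.8 FPKM in the PBS libraries, with a difference of 0.12 ± 0.22 (SE, with adjusted p = 0.735).

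Dnajb4 was also the member whose insulin difference depended on the sampling point (F = 9.25, adjusted p = 0.0143), 1 of 74 members beside 1.77% of all genes. Dnajb4 kept its call at point 3 in 21 of 21 alternatives (adjusted p between 4.96e-05 and 0.0384). Dnajb4 lost its call at point 2 in 7 of 21 alternatives (adjusted p between 0.00277 and 0.156), among them without insulin library 2 (adjusted p = 0.0656) or PBS library 2 or 3 (adjusted p = 0.0876 and 0.0546) and with a fit of that point alone (adjusted p = 0.074). Dnajb4 lost its call at point 4 in 11 of 21 alternatives (adjusted p between 0.0132 and 0.148), among them without insulin library 1 or 2 (adjusted p = 0.0564 and 0.148) or PBS library 1, 2 or 3 (adjusted p = 0.0595, 0.0658 and 0.1) and with no filter (adjusted p = 0.0715) and a fit of that point alone (adjusted p = 0.0682). Dnajb4 lost its call of dependence on the point in 6 of 14 alternatives (adjusted p between 0.00951 and 0.132), namely without insulin series 2 or 3 (adjusted p = 0.0656 and 0.132) or PBS series 1, 2 or 3 (adjusted p = 0.0628, 0.113 and 0.0892) and with no filter (adjusted p = 0.0503).

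**Figure D3:**
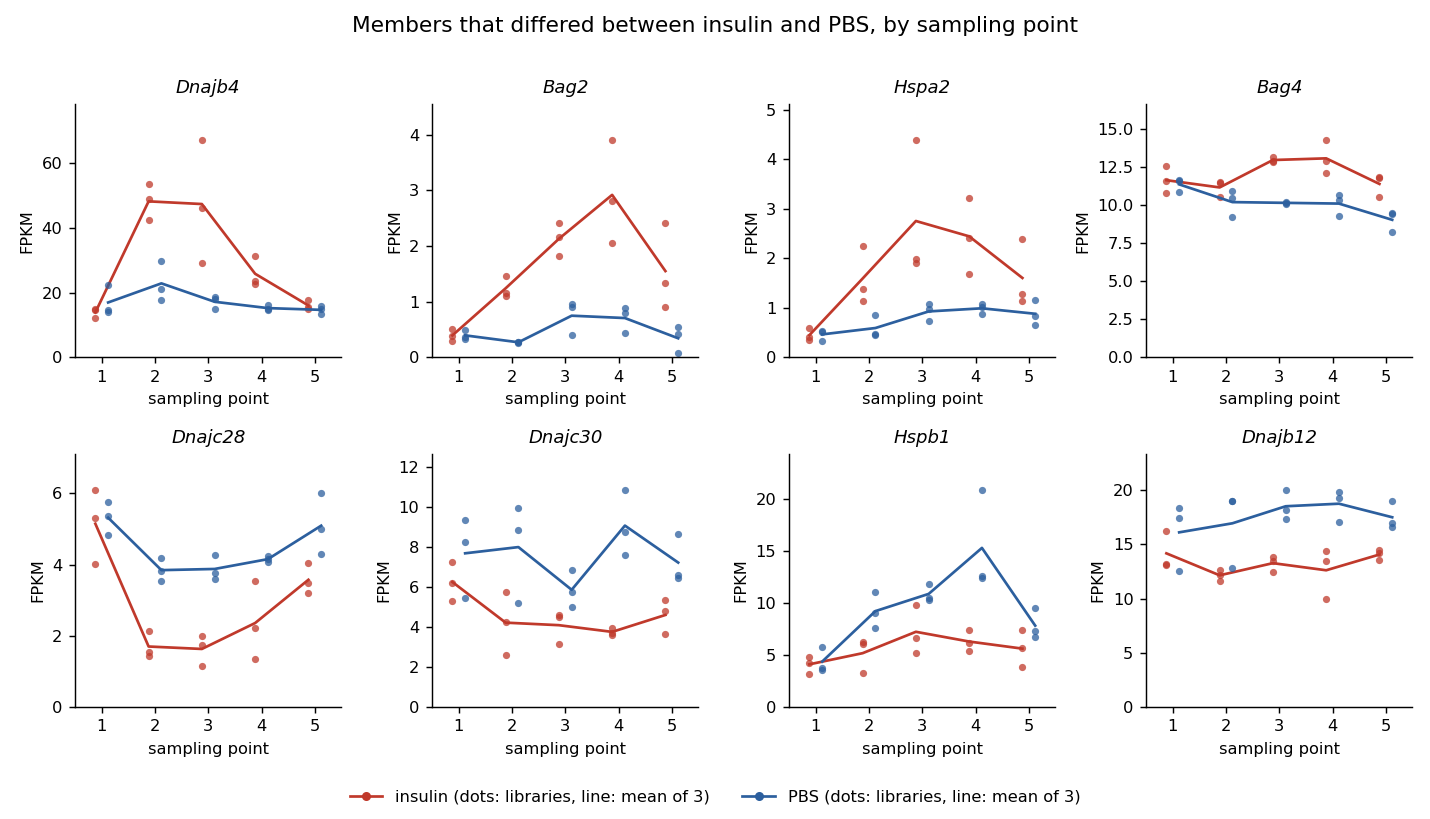
FPKM of 8 members that differed between insulin and PBS, in each of the 30 libraries, by sampling point, with lines through the group means. Dnajb4 parts at points 2 to 4. At points 2 to 5 the insulin means of Bag2, Bag4 and Hspa2 are above the PBS means, and those of Dnajc28, Dnajc30, Hspb1 and Dnajb12 are below.

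Bag2, a BAG protein that restrains the ubiquitin ligase acting with HSP70, was low in the liver but rose with insulin at points 2 to 5 (chromosome 1, 33745484 to 33757795, minus strand). At point 2 it was at 1.16, 1.10 and 1.47 FPKM in the insulin libraries and 0.282, 0.273 and 0.260 FPKM in the PBS libraries. At point 4 it was at 3.90, 2.80 and 2.06 FPKM in the insulin libraries and 0.798, 0.432 and 0.889 FPKM in the PBS libraries. At point 5 it was at 2.41, 0.907 and 1.34 FPKM in the insulin libraries and 0.0781, 0.537 and 0.414 FPKM in the PBS libraries. The PBS libraries of all points reached at most 0.953 FPKM. Bag2 therefore met the filter of 1 FPKM in 3 libraries through its insulin libraries alone. It is among the members counted above as higher at points 2 to 5. For points 2 to 5 the differences were 0.81 ± 0.19 (SE, with adjusted p = 0.0295), 0.85 ± 0.19 (SE, with adjusted p = 0.00826), 1.18 ± 0.19 (SE, with adjusted p = 0.000475) and 0.90 ± 0.19 (SE, with adjusted p = 0.00303), on a scale that understates the change of a gene near 1 FPKM. Bag2 lost its call at point 2 in 11 of 20 alternatives (adjusted p between 0.0183 and 0.184), among them without insulin library 1, 2 or 3 (adjusted p = 0.0736, 0.0801 and 0.0905) or PBS library 2 or 3 (adjusted p = 0.107 and 0.116) and with no filter (adjusted p = 0.059) and a fit of that point alone (adjusted p = 0.0516). Bag2 lost its call at point 3 in 2 of 20 alternatives (adjusted p between 0.00415 and 0.0536), among them without PBS library 1 (adjusted p = 0.0536). Bag2 lost its call at point 4 in 1 of 20 alternatives (adjusted p between 0.000244 and 0.0607), namely with a fit of that point alone (adjusted p = 0.0607). Bag2 lost its call at point 5 in 1 of 20 alternatives (adjusted p between 0.00142 and 0.0684), namely with a fit of that point alone (adjusted p = 0.0684).

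Bag4, known as a silencer of death domain receptors, was higher with insulin by less but with tight replicates (chromosome 8, 25764538 to 25785287, minus strand). It was not called as varying among the points in either arm, and its PBS mean was highest at point 1 and lowest at point 5. At point 1 the groups overlapped, at 10.8, 11.6 and 12.6 FPKM with insulin and 11.7, 10.8 and 11.6 FPKM with PBS. At point 3 it was at 13.1, 12.8 and 12.9 FPKM in the insulin libraries and 10.2, 10.2 and 10.1 FPKM in the PBS libraries. At point 4 it was at 12.9, 14.2 and 12.1 FPKM in the insulin libraries and 10.3, 10.7 and 9.30 FPKM in the PBS libraries. At point 5 it was at 11.8, 11.9 and 10.5 FPKM in the insulin libraries and 9.40, 9.47 and 8.23 FPKM in the PBS libraries. For points 3, 4 and 5 the differences were 0.32 ± 0.09 (SE, with adjusted p = 0.0242), 0.34 ± 0.09 (SE, with adjusted p = 0.0149) and 0.30 ± 0.09 (SE, with adjusted p = 0.0192). Bag4 lost its call at point 3 in 13 of 21 alternatives (adjusted p between 0.00463 and 0.0851), among them without insulin library 1, 2 or 3 (adjusted p = 0.0671, 0.0599 and 0.0553) or PBS library 1, 2 or 3 (adjusted p = 0.0624, 0.0618 and 0.0711) and with a fit of that point alone (adjusted p = 0.0652). Bag4 lost its call at point 4 in 6 of 21 alternatives (adjusted p between 0.00348 and 0.145), among them without insulin library 2 (adjusted p = 0.086) or PBS library 3 (adjusted p = 0.0833) and with a fit of that point alone (adjusted p = 0.145). Bag4 lost its call at point 5 in 7 of 21 alternatives (adjusted p between 0.00209 and 0.133), among them without insulin library 1 or 2 (adjusted p = 0.0792 and 0.0546) or PBS library 3 (adjusted p = 0.104) and with a fit of that point alone (adjusted p = 0.133). An opposite-strand gene, Gm17484, overlaps 14.8% of the Bag4 exons, and whether the quantification used strand is not stated in the sources used here.

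The other 4 BAG genes did not pass at any single point. At point 3 Bag3 had the values given above, which overlapped at PBS replicate 3, and a difference of 0.44 ± 0.16 (SE, with adjusted p = 0.0901). Under median-ratio scaling it passed at point 3, at 0.59 (adjusted p = 0.022). Bag6, which guards newly made membrane proteins, was lower in the mean over the points, with a difference of -0.34 ± 0.08 (SE, with adjusted p = 0.00134).

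Among HSP70 genes, Hspa2, best known from spermatogenesis, was the one that rose at a point without rescaling (chromosome 12, 76404176 to 76406938, plus strand). At point 3 it was at 1.9, 4.38 and 1.98 FPKM in the insulin libraries and 0.978, 0.731 and 1.08 FPKM in the PBS libraries. At point 4 it was at 2.42, 3.23 and 1.69 FPKM in the insulin libraries and 1.07, 1.03 and 0.878 FPKM in the PBS libraries. Under median-ratio scaling Hspa4 (points 3 and 5), Hspa9 (points 3, 4 and 5) and Hspa13 (points 4 and 5) passed as higher as well. The PBS libraries of Hspa2 stayed near 1 FPKM, and its differences were 0.90 ± 0.22 (SE, with adjusted p = 0.0113) and 0.77 ± 0.22 (SE, with adjusted p = 0.0219). Hspa2 lost its call at point 3 in 5 of 20 alternatives (adjusted p between 0.00557 and 0.0843), among them without insulin library 2 (adjusted p = 0.0843) or PBS library 2 (adjusted p = 0.0521) and with a fit of that point alone (adjusted p = 0.0699). Hspa2 lost its call at point 4 in 9 of 20 alternatives (adjusted p between 0.00994 and 0.123), among them without insulin library 1 or 2 (adjusted p = 0.0713 and 0.123) or PBS library 3 (adjusted p = 0.0815) and with a fit of that point alone (adjusted p = 0.0877). At point 2 Hspa2 did not pass, at 0.69 ± 0.22 (SE, with adjusted p = 0.105).

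The inducible HSP70 genes lay the other way. At point 2 Hspa1b was at 3.47, 7.44 and 5.25 FPKM in the insulin libraries and 13.2, 7.46 and 7.03 FPKM in the PBS libraries, which overlapped, with a difference of -0.68 ± 0.37 (SE, with adjusted p = 0.332), and Hspa1a was at -0.68 ± 0.27 (SE, with adjusted p = 0.196). Neither passed at any single point. In the mean over the 5 points both were lower with insulin, with differences of -0.43 ± 0.12 (SE, with adjusted p = 0.00555) for Hspa1a, -0.45 ± 0.16 (SE, with adjusted p = 0.0296) for Hspa1b and, for their sum, -0.53 ± 0.17 (SE, adjusted p = 0.0162). Hspa1b lost its call in the mean in 6 of 14 alternatives (adjusted p between 0.0162 and 0.133), namely without insulin series 1 or 2 (adjusted p = 0.0833 and 0.0522) or PBS series 3 (adjusted p = 0.079) and with no filter (adjusted p = 0.0755), median-ratio scaling (adjusted p = 0.115) and quantile normalization (adjusted p = 0.133). Hspa1a lost its call in the mean in 2 of 14 alternatives (adjusted p between 0.00528 and 0.0521), namely without insulin series 1 (adjusted p = 0.0501) and with quantile normalization (adjusted p = 0.0521). Hspa8, Hsph1, Hspa9 and the 2 HSP90 genes passed neither at a point nor in the mean, with mean differences of -0.03, -0.04, 0.05, 0.12 (Hsp90aa1) and -0.16 (Hsp90ab1).

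Hspb1, the ATP-independent holdase also called HSP27 or HSP25, was lower with insulin (chromosome 5, 135887919 to 135889563, plus strand). In the PBS arm it was at 3.58, 3.72 and 5.77 (point 1), 7.57, 9.07 and 11.0 (point 2), 10.3, 10.5 and 11.8 (point 3), 12.6, 20.9 and 12.4 (point 4) and 9.48, 6.69 and 7.30 FPKM (point 5). In the insulin arm it was at 4.83, 4.25 and 3.20 (point 1), 3.25, 6.23 and 6.03 (point 2), 9.84, 5.19 and 6.65 (point 3), 5.37, 7.36 and 6.14 (point 4) and 3.80, 7.38 and 5.63 FPKM (point 5). Its PBS arm varied among points (F = 11.7, adjusted p = 0.00242), its insulin arm did not pass (F = 2.21, adjusted p = 0.298), and the dependence of the insulin difference on the point did not pass either (F = 2.63, adjusted p = 0.465). At point 4 it was lower with insulin, a difference of -1.13 ± 0.24 (SE, with adjusted p = 0.0049), with PBS replicate 2 the highest of the 30 libraries. Hspb1 lost its call at point 4 in 1 of 21 alternatives (adjusted p between 0.00368 and 0.0655), namely with a fit of that point alone (adjusted p = 0.0655). Hspb1 lost its call in the PBS arm in 2 of 14 alternatives (adjusted p between 0.00107 and 0.146), namely without PBS series 1 or 2 (adjusted p = 0.0611 and 0.146). At point 4 the sum of the 6 sinusoidal endothelium markers was 40.4 to 53.4 FPKM with insulin and 57.0 to 71.7 with PBS. The sum of the 6 Kupffer cell markers was 66.8 to 83.9 and 86.9 to 185 FPKM, also without overlap. Of the markers 1 endothelial (Clec4g) and 2 Kupffer cell genes (Clec4f and Cd5l) were called lower there, and the part of either cell type in this result was not tested.

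Hspb6, a small heat shock protein of muscle, was lower at point 5, at 2.92, 4.49 and 3.13 FPKM in the insulin libraries and 6.22, 5.58 and 7.67 FPKM in the PBS libraries, a difference of -0.74 ± 0.23 (SE, with adjusted p = 0.0303). Hspb6 lost its call at point 5 in 11 of 21 alternatives (adjusted p between 0.0162 and 0.146), among them without insulin library 1 or 3 (adjusted p = 0.126 and 0.0883) or PBS library 1 or 3 (adjusted p = 0.0538 and 0.125) and with no filter, median-ratio scaling, quantile normalization and a fit of that point alone. At that point the sum of 5 smooth muscle markers was 3.31 to 4.82 FPKM with insulin and 3.08 to 7.49 with PBS, none of the 3 that were tested was called at any point, and Cnn1 had a value in 5 of the 30 libraries. At point 5 the sum of the 6 sinusoidal endothelium markers was 36.2 to 46.9 FPKM with insulin and 53.8 to 57.5 with PBS, with 3 called lower. The red cell sum, at 219 to 262 and 311 to 458 FPKM, was also lower without overlap, and the Kupffer cell sums overlapped. The part of any of these cell types in this result was not tested. Hspb8 did not pass at any point, with differences of -0.41, 0.05, 0.25, -0.09 and -0.06 at points 1 to 5. Its insulin libraries lay wholly below the PBS libraries at point 1 and wholly above them at point 3, and under both rescalings it passed as higher at point 3 and in the mean.

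None of the 9 members listed as mitochondrial was higher with insulin at any point, and 1, 2, 3 and 0 of them were lower at points 2 to 5, beside the shares of all genes given above (0.736%, 7.26%, 10.4% and 16.1%). Under median-ratio scaling the numbers lower were 1, 1, 2 and 0, beside 0.421%, 3.6%, 5.85% and 7.86% of all genes. With it Hspa9 was higher at points 3, 4 and 5, and Hspd1 was higher at point 5, both also in the mean over the points. Without rescaling, the median difference of the 9 members in the mean over the points was -0.17, beside -0.13 over all genes. Dnajc28, a little-studied J domain protein, was lower at 3 points (chromosome 16, 91614254 to 91619026, minus strand). At point 1 the groups overlapped, at 4.02, 6.10 and 5.32 FPKM in the insulin libraries and 5.76, 4.84 and 5.35 FPKM in the PBS libraries. At point 2 it was at 1.54, 1.42 and 2.13 FPKM in the insulin libraries and 3.53, 3.81 and 4.19 FPKM in the PBS libraries. At point 3 it was at 2.00, 1.14 and 1.74 FPKM in the insulin libraries and 3.76, 4.27 and 3.59 FPKM in the PBS libraries. It was below every PBS library there too, and at point 4 it was at 2.21, 1.33 and 3.52 FPKM in the insulin libraries and 4.25, 4.07 and 4.14 FPKM in the PBS libraries. Insulin minus PBS was -0.85 ± 0.18 (SE, with adjusted p = 0.0115), -0.90 ± 0.18 (SE, with adjusted p = 0.003) and -0.67 ± 0.18 (SE, with adjusted p = 0.0171) at points 2, 3 and 4, and Dnajc28 varied among points in the insulin arm (F = 17.5, adjusted p = 4.89e-05). Dnajc28 kept its call at point 3 in 20 of 20 alternatives (adjusted p between 0.00262 and 0.0342). Dnajc28 lost its call at point 2 in 8 of 20 alternatives (adjusted p between 0.00733 and 0.165), among them without insulin library 1 or 2 (adjusted p = 0.0556 and 0.0852) or PBS library 2 or 3 (adjusted p = 0.0521 and 0.0787) and with a fit of that point alone (adjusted p = 0.0656). Dnajc28 lost its call at point 4 in 9 of 20 alternatives (adjusted p between 0.00128 and 0.149), among them without insulin library 1 or 2 (adjusted p = 0.0571 and 0.13) or PBS library 3 (adjusted p = 0.0543) and with a fit of that point alone (adjusted p = 0.149).

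Dnajc30, a J protein bound to the ATP synthase, was lower at point 4, at 3.94, 3.61 and 3.68 FPKM in the insulin libraries and 8.75, 7.56 and 10.8 FPKM in the PBS libraries, a difference of -1.07 ± 0.22 (SE, with adjusted p = 0.00394). An opposite-strand gene, Bud23, overlaps 26.2% of the exons of Dnajc30 (chromosome 5, 135064202 to 135065862, plus strand). Dnajc30 kept its call at point 4 in 21 of 21 alternatives (adjusted p between 0.00179 and 0.0437). Dnajc11, a J protein of the mitochondrial contact site complex, was at 9.27, 8.77 and 12.2 FPKM in the insulin libraries and 14.0, 14.1 and 15.0 FPKM in the PBS libraries at point 4, a difference of -0.48 ± 0.13 (SE, with adjusted p = 0.017). Dnajc11 lost its call at point 4 in 10 of 21 alternatives (adjusted p between 0.00378 and 0.116), among them without insulin library 1 or 2 (adjusted p = 0.078 and 0.0948) or PBS library 3 (adjusted p = 0.0682) and with median-ratio scaling (adjusted p = 0.0705), quantile normalization (adjusted p = 0.0504) and a fit of that point alone (adjusted p = 0.116).

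Dnaja3, also called Tid1, the J partner of Hspa9, was at 37.5, 38.5 and 44.0 FPKM in the insulin libraries and 46.9, 50.5 and 54.9 FPKM in the PBS libraries at point 3, a difference of -0.34 ± 0.11 (SE, with adjusted p = 0.048). Dnaja3 lost its call at point 3 in 16 of 21 alternatives (adjusted p between 0.0211 and 0.234), among them without insulin library 1 or 2 (adjusted p = 0.149 and 0.132) or PBS library 1, 2 or 3 (adjusted p = 0.0589, 0.105 and 0.177) and with no filter, median-ratio scaling, quantile normalization, lane as a random effect, no trend and a fit of that point alone. Without rescaling the HSP70, HSP60 and HSP10 of the matrix did not pass at any point. At point 5 Hspa9 was at 201, 217 and 234 FPKM in the insulin libraries and 182, 239 and 186 FPKM in the PBS libraries. Hspd1 was at 183, 186 and 225 FPKM in the insulin libraries and 174, 198 and 140.2 FPKM in the PBS libraries. With median-ratio scaling Hspa9 at 0.33 (adjusted p = 0.00534) and Hspd1 at 0.44 (adjusted p = 0.0136) were higher with insulin at point 5.

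Outside the list of mitochondrial members, Dnajb12, a J protein anchored in the endoplasmic reticulum membrane, was lower at points 3 and 4. At point 3 it was at 13.5, 12.5 and 13.8 FPKM in the insulin libraries and 17.4, 18.1 and 20.0 FPKM in the PBS libraries. At point 4 it was at 9.98, 13.4 and 14.4 FPKM in the insulin libraries and 17.1, 19.3 and 19.9 FPKM in the PBS libraries. Insulin minus PBS gave differences of -0.45 ± 0.14 (SE, with adjusted p = 0.0486) and -0.55 ± 0.14 (SE, with adjusted p = 0.016). Dnajb12 lost its call at point 3 in 17 of 21 alternatives (adjusted p between 0.0215 and 0.187), among them without insulin library 1, 2 or 3 (adjusted p = 0.101, 0.138 and 0.0781) or PBS library 1, 2 or 3 (adjusted p = 0.0784, 0.099 and 0.161) and with a pseudocount of 0.1, no filter, median-ratio scaling, quantile normalization, lane as a random effect and no trend. Dnajb12 lost its call at point 4 in 7 of 21 alternatives (adjusted p between 0.00608 and 0.14), among them without insulin library 1 (adjusted p = 0.111) or PBS library 3 (adjusted p = 0.0682) and with a fit of that point alone (adjusted p = 0.108). Dnajc4 was at 1.20, 2.39 and 1.94 FPKM in the insulin libraries and 3.01, 3.56 and 5.82 FPKM in the PBS libraries at point 4, a difference of -0.84 ± 0.26 (SE, with adjusted p = 0.0357). Dnajc4 lost its call at point 4 in 11 of 20 alternatives (adjusted p between 0.0153 and 0.221), among them without insulin library 1 or 2 (adjusted p = 0.17 and 0.054) or PBS library 3 (adjusted p = 0.198) and with no filter, median-ratio scaling, quantile normalization and a fit of that point alone.

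The related Dnajb14 varied among points in the insulin arm (F = 6.24, adjusted p = 0.016) and did not pass between treatments at point 5, at a difference of 0.23 (adjusted p = 0.127). Hspa13, an HSP70 of the endoplasmic reticulum, was higher in the mean over the points, with a difference of 0.36 ± 0.09 (SE, with adjusted p = 0.00309). At point 5 it was at 5.74, 8.93 and 9.18 FPKM in the insulin libraries and 4.94, 6.54 and 5.10 FPKM in the PBS libraries. Of the 6 members listed for that compartment, 0 were higher and 1 lower at points 3 and 4, beside 2.19% and 7.26% of all genes at point 3 and 2.82% and 10.4% at point 4. Under both rescalings Dnajb14 and Hspa13 passed as higher at points 4 and 5, and none was lower at point 3.

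The chaperonin TRiC, which folds actin and tubulin, had no call. None of its 7 measured subunits in the rule passed at any point or in either arm, and their median difference was 0.03, -0.09, 0.04, 0.00 and 0.06 at points 1 to 5. Tcp1, its first subunit, ranged from 52.1 to 76.1 FPKM in the insulin libraries and 54.3 to 76.6 in the PBS libraries. A further subunit gene, Cct6a, is no member by the rule and had no call at a point. The absence of calls depended on the scaling: with median ratios Cct3 and Cct4 passed as higher at point 5, beside 9.04% of all genes. With the same scaling 6 of the 7, Tcp1 among them, passed as higher in the mean over the points, beside 20.5%.

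In the mean over the 5 points 10 members were higher with insulin, beside 7.89% of all genes, and 11 were lower, beside 37.6%. Together they were 28.4% of the members, beside 45.5% of all genes. The members' median was -0.03 against -0.13 over all genes, and under median-ratio scaling 32 were higher and 8 lower, beside 20.5% and 20.1% of all genes. Those higher were Dnajb4 (0.60), Bag2 (0.75), Hspa2 (0.56), Hspa13 (0.36), Hspa4l (0.24), Bag4 (0.22), Dnajc18 (0.21), Dnajc13 (0.12) and the processed copies Hspa9-ps1 (0.21) and Hspd1-ps5 (0.16). Those lower were Dnajc30 (-0.62), Hspb1 (-0.59), Dnajc28 (-0.58), Hspa1b, Dnajc4 (-0.45), Hspa1a, Dnajb12 (-0.38), Bag6, Hspb6 (-0.34), Dnajc11 (-0.29) and Dnaja3 (-0.19).

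The rule also gathered 13 rows of pseudogenes or related sequences, of which 9 were tested and 0 passed at any single point. Hspd1-ps3 was listed at 45.5 to 75.4 FPKM. This copy shares 98.955% of 1722 aligned bases with Hspd1, so its value and that of the parent gene are uncertain. The 15 members that were not tested stayed low in every library, among them Hspa1l, the testis HSP70 (at most 0.604 FPKM), Hspa12b (at most 0.501 FPKM) and Dnajc27 (at most 0.294 FPKM).

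Genes that work with the chaperones were counted as a separate list of 27 tested co-chaperones and heat shock factors. The numbers higher with insulin were 0, 1 and 2 for points 3, 4 and 5, beside 2.19%, 2.82% and 2.96% of all genes, and the numbers lower were 5, 6 and 6, beside 7.26%, 10.4% and 16.1%. Under median-ratio scaling they were 1, 1 and 3 higher, beside 5.21%, 7.02% and 9.04%, and 2, 2 and 2 lower, beside 3.6%, 5.85% and 7.86%. In the mean 2 were higher and 13 lower, beside 7.89% and 37.6% of all genes, with a median of -0.19 beside -0.13. With median ratios 6 were higher and 10 lower in the mean, beside 20.5% and 20.1% of all genes. Fkbp5, an HSP90 partner that tunes the glucocorticoid receptor, was at 53.6, 48.2 and 48.8 FPKM in the insulin libraries and 89.7, 96.9 and 102 FPKM in the PBS libraries at point 3, a difference of -0.93 ± 0.16 (SE, with adjusted p = 0.00114). Fkbp5 kept its call at point 3 in 21 of 21 alternatives (adjusted p between 0.00081 and 0.022). Stub1, the ubiquitin ligase CHIP that tags clients of HSP70, was at 10.9, 16.4 and 13.9 FPKM in the insulin libraries and 21.8, 20.7 and 24.4 FPKM in the PBS libraries at point 5, a difference of -0.67 ± 0.17 (SE, with adjusted p = 0.00982). Stub1 lost its call at point 5 in 3 of 21 alternatives (adjusted p between 0.00429 and 0.0758), among them without insulin library 1 (adjusted p = 0.0758). Fkbp8, a mitochondrial immunophilin, was at 46.4, 47.4 and 46.1 FPKM in the insulin libraries and 79.4, 78.7 and 82.5 FPKM in the PBS libraries at point 5, a difference of -0.77 ± 0.16 (SE, with adjusted p = 0.00285). At point 1 it was already at 85.7 and 82.9 FPKM in PBS replicates 2 and 3. PBS replicate 1 was at 48.3 FPKM there, and the insulin libraries were at 53.7, 53.9 and 55.9 FPKM. Fkbp8 kept its call at point 5 in 21 of 21 alternatives (adjusted p between 0.000593 and 0.0275).

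Stip1, which hands clients from HSP70 to HSP90, was at 17.4, 19.2 and 22.5 (point 1) and 31.1, 38.2 and 30.9 FPKM (point 2) in the PBS arm. At point 5 it was at 17.0, 23.1 and 25.3 FPKM in the insulin libraries and 30.2, 33.0 and 28.5 FPKM in the PBS libraries. It varied among points with PBS (F = 10.3, adjusted p = 0.00483) and did not pass with insulin (F = 3.23, adjusted p = 0.138). The dependence of its insulin difference on the point did not pass (F = 1.86, adjusted p = 0.64). Its insulin difference at point 5 was -0.49 ± 0.15 (SE, with adjusted p = 0.0278). Stip1 lost its call in the PBS arm in 2 of 14 alternatives (adjusted p between 0.000923 and 0.2), namely without PBS series 1 or 2 (adjusted p = 0.2 and 0.145). Stip1 lost its call at point 5 in 12 of 21 alternatives (adjusted p between 0.0169 and 0.188), among them without insulin library 1 (adjusted p = 0.188) or PBS library 1, 2 or 3 (adjusted p = 0.0533, 0.0906 and 0.0502) and with no filter, median-ratio scaling, quantile normalization and a fit of that point alone. Ahsa1, which speeds the ATPase of HSP90, varied with PBS as well (F = 8.89, adjusted p = 0.0098). Ahsa1 lost its call in the PBS arm in 3 of 14 alternatives (adjusted p between 0.00489 and 0.188), namely without PBS series 1, 2 or 3 (adjusted p = 0.162, 0.188 and 0.0778).

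**Figure D4:**
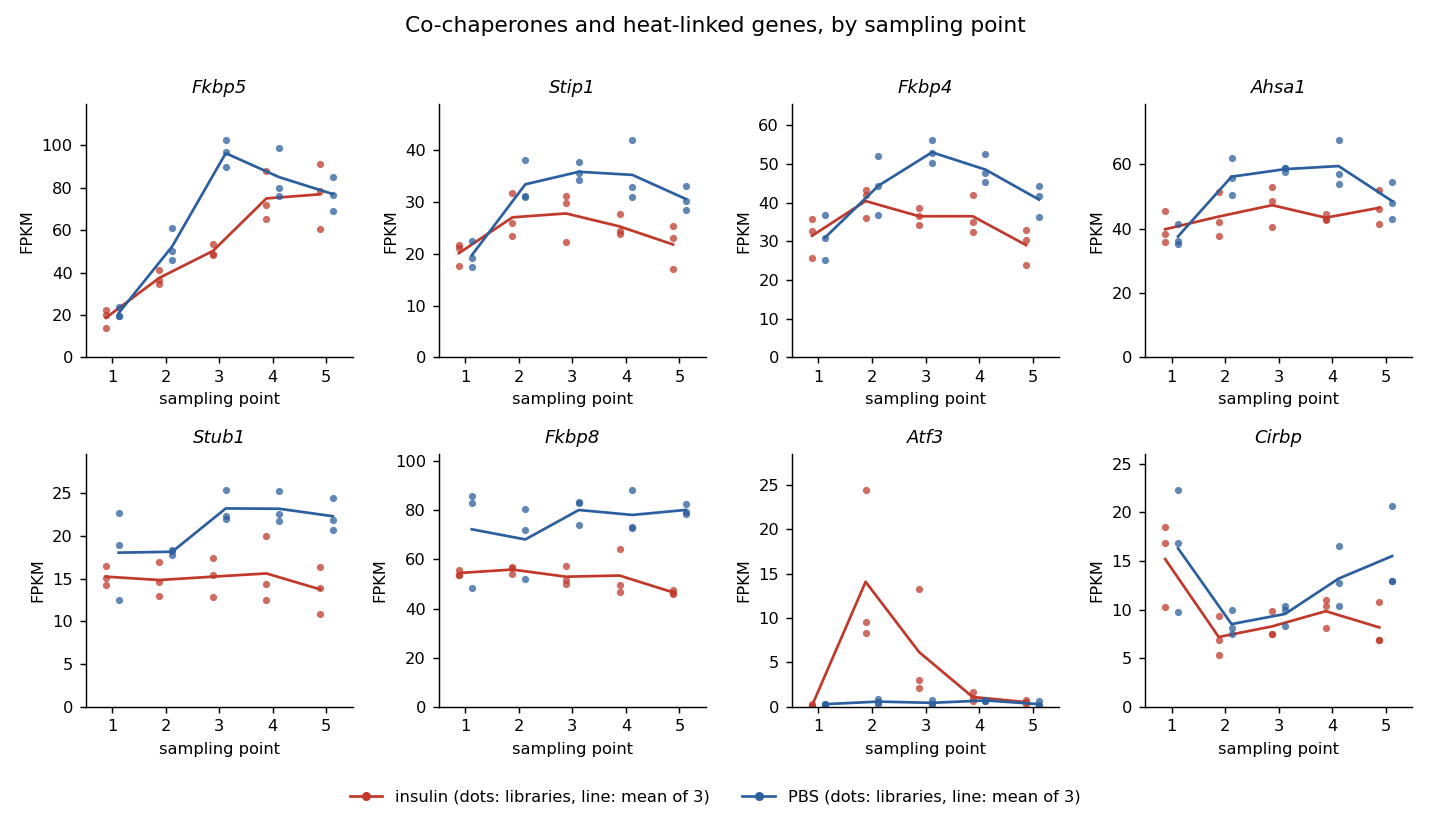
FPKM of 6 co-chaperones and of Atf3 and Cirbp in each of the 30 libraries, by sampling point, with lines through the group means. Fkbp5 is lower with insulin at point 3, Stub1 and Fkbp8 are lower at point 5, and Atf3 is higher at point 2.

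Other lists were counted in the same way. Of 13 tested genes of mitochondrial protein quality control, 2 were higher at point 5 (Grpel2 at 0.58 and Yme1l1 at 0.36), beside 2.96% of all genes. Lower at that point were 3 (Trap1 at -0.29, Lonp1 at -0.39 and Spg7 at -0.40), beside 16.1%. In the mean over the points 1 of the 13 was higher and 8 were lower, beside 7.89% and 37.6% of all genes. Of 11 other chaperonin and prefoldin subunits, 1 was higher at point 4 (Pdcl3 at 0.76), beside 2.82% of all genes. At point 5, 1 was lower (Pfdn6 at -0.59), beside 16.1%. In the mean 2 were higher and 3 lower. Of the 5 endoplasmic reticulum chaperones that the rule left out, 1 was higher at point 3, Dnajb9, at 0.78, beside 2.19% of all genes. In the mean 2 of them were higher and none was lower. These lists were not counted under the rescalings.

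Among other heat-linked genes, Atf3, a stress transcription factor, was at 9.53, 24.4 and 8.28 FPKM in the insulin libraries and 0.358, 0.497 and 0.914 FPKM in the PBS libraries at point 2, a difference of 3.11 ± 0.38 (SE, with adjusted p = 2.68e-05). No PBS library of any point reached 1 FPKM, so Atf3 met the filter through its insulin libraries alone. Atf3 kept its call at point 2 in 20 of 20 alternatives (adjusted p between 3.42e-07 and 0.0253). Cirbp, the cold-inducible RNA-binding protein, was at 6.86, 10.7 and 6.89 FPKM in the insulin libraries and 12.9, 12.9 and 20.7 FPKM in the PBS libraries at point 5, a difference of -0.84 ± 0.26 (SE, with adjusted p = 0.0248). Cirbp lost its call at point 5 in 10 of 21 alternatives (adjusted p between 0.0145 and 0.142), among them without insulin library 1 or 3 (adjusted p = 0.107 and 0.0851) or PBS library 3 (adjusted p = 0.142) and with no filter, median-ratio scaling, quantile normalization and a fit of that point alone.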

How the data were processed

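Poly(A) RNA of 30 mouse livers was sequenced from directional libraries, per the labels' protocols. The tools were HISAT2 2.1.0 (aligner), SAMtools 1.9 and StringTie 2.0.3 (quantifier) on GRCm38, per the submitters' processing notes. For the annotation and the strand setting, nothing is stated in the sources used here. Values deposited by the authors are FPKM, scaled to transcript length and mapped fragments. Empty cells (32.2%) were set to 0.

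Genes at 1 FPKM or more in 3 or more of the 30 libraries were kept. Their log2(FPKM + 1), computed from the deposited FPKM, was fitted in limma 3.58.1 under R 4.3.3 with a mean per group (10 groups, 20 residual degrees of freedom) and an intensity trend. Differences are log2 values with SE, understate the change of low genes, and carry two-sided p-values adjusted by Benjamini-Hochberg over all 13589 genes, with a threshold of 0.05. Treatment, replicate and point came from the sample titles, whose 3-level number was taken as the replicate and 5-level number as the point. Labels treat libraries as separate samples, so p-values measure the spread between these samples. Replicates correlated at 0.966 to 0.983 and shared 0% of identical values. Depth was estimated from the steps of low values, of which 40.0% to 51.3% were whole reads within 0.05, so no reads were recovered.

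The members and lists were chosen with earlier results of these data known. Named were 14 core chaperones in all comparisons, up to 6 highest and 6 lowest members per point that passed without overlap, the 6 smallest adjusted p per F test and up to 4 per other list. Other names, and the comparisons of points 1, 2 and 5, were chosen after values were seen. Promoters came from RefSeq, positions from GENCODE M21. Alternatives were a pseudocount of 0.1, 2 other filters, 2 rescalings, a replicate block, lane as a random effect, no trend, the 6 libraries of a point alone and libraries left out. The scripts were tested on simulated data. Some genes named by these rules are not reported here.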

Additional observations from a re-analysis of the deposited data

Results flagged for a closer look

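The difference between insulin and PBS differed among the sampling points for 1 of the 74 tested members, Dnajb4, by the interaction term of the model (limma, F = 9.25, adjusted p = 0.0143). Insulin minus PBS on the log2 scale was, for points 1 to 5, -0.24, 1.07, 1.34, 0.71 and 0.12, each ± 0.22 (SE, 3 libraries per group). The adjusted p of this term lay between 0.00951 and 0.132 over its 14 alternatives.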

How the results depend on the processing

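Counts are of members higher or lower with insulin unless said otherwise. With no filter 1 was higher at point 2, 1 lower at point 3, 0 lower at point 5, the dependence on the point held for 0, and 6 and 1 were higher at point 2 than at point 1 in the insulin and PBS arms. With the filter at a mean of 5 FPKM, which tested 51 members, 1 was higher and 0 lower at point 2, 2 higher at point 3, 2 at point 4 and 5 in the mean, 8 varied in the insulin arm, 7 were higher and 0 lower at point 2 than at point 1 there, 0 higher and 3 lower at point 5 than at point 2, and in the PBS arm 1 was lower at point 5. With only the 6 libraries of a point 0 were higher and 0 lower at point 2, 2 higher at point 3, 0 higher and 1 lower at point 4, and 0 and 0 at point 5. Median-ratio scaling gave 9 higher and 1 lower at point 3, 9 higher at point 4, 13 and 0 at point 5, 32 higher in the mean, 2 whose difference depended on the point (Dnajb4 and Hspb8), and 3 higher at point 5 than at point 2 in the insulin arm. Quantile normalization gave 9 and 1, 8, 13 and 0, 29 higher and 7 lower in the mean, 2, and 2. Tcp1 in the mean over the points turned from -0.02 to 0.14 with median ratios and 0.13 with quantile normalization. Lane as a random effect and limma without a trend each left 1 lower at point 3. The causes of these shifts were not tested.

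Leaving out 1 library or replicate series at a time gave 0 to 2 higher and 0 to 4 lower at point 2, 2 to 4 and 1 to 2 at point 3, 1 to 4 and 2 to 7 at point 4, 1 to 4 and 0 to 2 at point 5, and 5 to 12 and 8 to 14 in the mean. The dependence on the point held for 0 to 1, variation in the insulin arm for 8 to 14 and in the PBS arm for 0 to 6. Point 2 against point 1 gave 4 to 9 higher and 1 to 1 lower with insulin and 0 to 5 higher with PBS, and point 5 against point 2 gave 0 to 1 higher and 2 to 5 lower with insulin and 0 to 3 lower with PBS. For the replicate block, 15 insulin and PBS pairs of the same point and number correlated at -0.11 to 0.12 in their deviations. Of these, 1 was over 0.1, and 5 insulin libraries correlated best with their own number. Such pairs cannot show whether same-numbered libraries within an arm share more than the number. In the PBS arm replicates 1, 2 and 3 ran on lanes 3, 4 and 5 at every point. The replicate block gave 2 lower at point 2, 5 lower at point 3 and 4 higher and 2 lower at point 5. Depth could be estimated only roughly, and no interval for counting error is given for genes near 1 FPKM such as Bag2 and Hspa1a.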
